A study of Mus musculus with 4 samples.

Results

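The genes examined here are 10 genes of the transcription factor NRF2 and of antioxidant defence: Nfe2l2, Keap1, Nqo1, Gclc, Gclm, Txnrd1, Srxn1, Gpx3, Sod2 and Cat. Whether NRF2 controls each of these genes was not measured. They were chosen by gene symbol, and each symbol matched 1 of the 23282 gene rows. Expression was measured by QuantSeq, a method that reads the 3′ ends of transcripts with a poly(A) tail, in the gastrocnemius, a calf muscle. Of the mice, all of the strain CDF1 and labelled postnatal day 28, the group named normal control had neither exercise nor a tumor, the group named normal exercise ran on a treadmill at high intensity, the cancer control mice received CT26 cells, and the cancer exercise mice had both. CT26 is a mouse colorectal carcinoma line, here injected into the tail vein, so that the cancer spreads through the body. The mice were male, and the tissue came from the right leg. According to the methods the mice were bought at about the labelled age and killed at the end of the experiment. The label may therefore not be their age at sampling. Where 4 values stand in a row, the mice without a tumor come first and those with one second, each pair with the unexercised library ahead of the exercised one.

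Each group had 1 library. The number of mice in a group is 10 in the design text, whereas the study elsewhere describes a representative mouse of each group, so the number of animals behind a library was not settled. No difference reported here has a replicate library, no test between conditions was possible, and the intervals given cover counting error only.

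NRF2, the product of Nfe2l2, is held in the cytoplasm and marked for degradation by KEAP1. Oxidants and electrophiles modify KEAP1, after which NRF2 accumulates, pairs with a small MAF protein and binds the antioxidant response element in its target genes. Much of this control acts on the protein, so that the transcript of Nfe2l2 need not follow NRF2 activity. Contracting muscle produces superoxide and hydrogen peroxide, and the enzymes encoded by these genes make glutathione, keep thioredoxin and peroxiredoxins reduced, or remove superoxide and peroxide.

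All 10 genes were detected in every library, with between 77 and 9483 reads. Library totals ranged from 10647594 to 13225969 reads, rebuilt from the deposited values. The normalized read count is the read count brought to a common library size. A gene is said to have risen or fallen where this value differed at least 2-fold and reached 4 in either of the libraries compared. In whole muscle, fewer cells of a type and less RNA per cell cannot be told apart. By this rule Gclc, Gclm and Gpx3 rose with the tumor in mice without exercise, where 20.9% of all genes that met the minimum rose. Gclm fell with exercise in tumor-bearing mice, where 15.1% of genes fell. The other 36 of 40 values, from 10 genes in 4 comparisons, stayed under 2-fold.

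The promoters of 9 of the 10 genes were found in RefSeq (GRCm38.p6), as 11 windows from 250 bases before to 50 bases after a transcription start. The core of the antioxidant response element, TGACNNNGC, was present on either strand in 4 of these 11 windows, against 12.4% of 32851 windows of all genes. Those 4 windows are printed because they hold the letters that NRF2 binding is known for. Capitals mark the core and, in Srxn1, also a variant of it, TGANTCAGC, that was searched after the sequences had been seen. The sequences run 5′ to 3′ on the strand of the gene.
Gclm, chr3:122245307-122245606, plus strand: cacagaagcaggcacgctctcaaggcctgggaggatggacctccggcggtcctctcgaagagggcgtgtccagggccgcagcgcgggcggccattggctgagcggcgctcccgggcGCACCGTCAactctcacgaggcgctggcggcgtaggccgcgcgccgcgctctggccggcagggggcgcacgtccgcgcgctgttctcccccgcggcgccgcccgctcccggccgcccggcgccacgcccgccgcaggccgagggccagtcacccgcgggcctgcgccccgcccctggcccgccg
Srxn1, chr2:152105274-152105573, plus strand: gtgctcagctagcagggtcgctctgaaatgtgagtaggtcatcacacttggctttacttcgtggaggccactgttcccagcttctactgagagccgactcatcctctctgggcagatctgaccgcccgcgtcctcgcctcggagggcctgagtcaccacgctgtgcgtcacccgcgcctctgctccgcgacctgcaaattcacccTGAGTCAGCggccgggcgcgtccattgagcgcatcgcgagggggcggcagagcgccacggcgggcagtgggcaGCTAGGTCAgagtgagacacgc
Txnrd1, chr10:82858956-82859255, plus strand: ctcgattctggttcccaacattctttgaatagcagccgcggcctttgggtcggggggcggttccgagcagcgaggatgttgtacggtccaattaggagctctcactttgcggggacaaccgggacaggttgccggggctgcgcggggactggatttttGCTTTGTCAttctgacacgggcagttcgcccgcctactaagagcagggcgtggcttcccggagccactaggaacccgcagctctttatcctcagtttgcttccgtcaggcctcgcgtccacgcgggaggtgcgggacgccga
Nfe2l2, chr2:75704614-75704913, minus strand: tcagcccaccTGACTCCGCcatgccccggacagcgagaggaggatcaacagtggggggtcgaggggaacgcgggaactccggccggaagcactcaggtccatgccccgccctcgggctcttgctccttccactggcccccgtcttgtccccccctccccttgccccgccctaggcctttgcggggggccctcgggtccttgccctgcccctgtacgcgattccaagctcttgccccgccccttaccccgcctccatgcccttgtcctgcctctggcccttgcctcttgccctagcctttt
Counted from the start site, the core was centred at base -130 in Gclm, -88 in Txnrd1, -236 in Nfe2l2 and 32 in Srxn1. The variant in Srxn1 was centred at -41 and occurred in 1.19% of all windows. The windows of Keap1, Nqo1, Gpx3, Sod2 and Cat and the other 2 windows of Txnrd1 did not hold either set of letters. No window was found for Gclc, and sequence outside the windows was not searched, so an element further away would be missed. A match of letters is a description of the sequence and not a measured binding site. The reference is of the strain C57BL/6J, not of CDF1.

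Nfe2l2 lies on chromosome 2 (GRCm38, 75675513 to 75704641, minus strand). In normalized reads it measured 849 in normal control and 780 in its exercised counterpart, against 823 and 769 in the matching libraries with a tumor. These levels lay within 1.1-fold of each other, and their 95% counting intervals overlapped, from 713 at the lowest bound to 910 at the highest. On the log2 scale the change was -0.12 (95% interval -0.26 to 0.02) with exercise in mice without a tumor and -0.04 (-0.19 to 0.10) with the tumor in mice without exercise, and both signs turned when libraries were scaled to their total reads (0.04 and 0.03).

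Keap1 encodes the adaptor that brings NRF2 to a ubiquitin ligase. The gene lies on chromosome 9 (21229730 to 21239361, minus strand). The normalized read counts were 1203 and 1878 in the unexercised and exercised libraries without a tumor, and 1637 and 1915 in those with one. Normal control was the lowest library, cancer control stood next, and the exercised libraries were highest and alike within their counting intervals. The log2 fold change was 0.64 (0.54 to 0.75) with exercise in mice without a tumor and 0.44 (0.33 to 0.56) with the tumor in mice without exercise, both under 2-fold. In tumor-bearing mice it was 0.23 (0.13 to 0.33) with exercise. In exercised mice the tumor value was 0.03 (-0.06 to 0.12), and it was -0.13 under scaling to total reads. An antisense gene, Gm16754, shares 510 exonic bases with Keap1 in GENCODE M21, and it is not stated whether the reads were counted by strand.

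**Figure D1:**
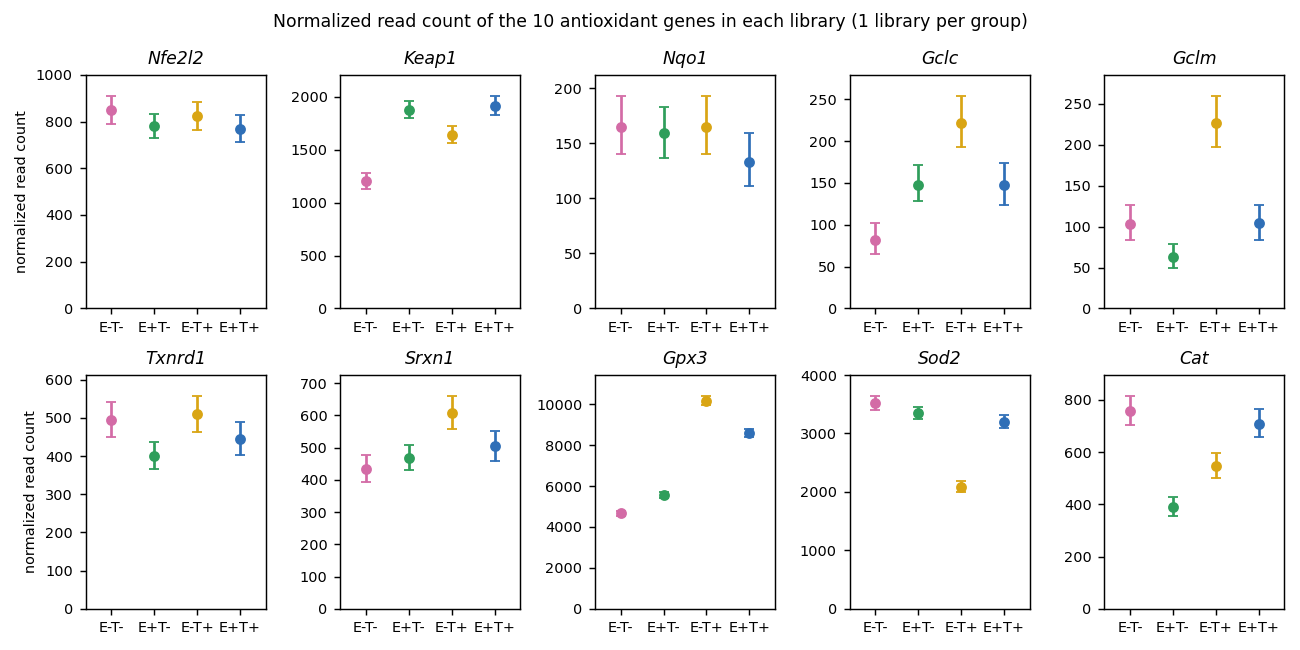
Normalized read count of each gene (vertical axes, each starting at 0) in each library, labelled by exercise (E) and tumor (T) as present (+) or absent (-). Points are single libraries and bars are 95% exact counting intervals; Gclc, Gclm, Srxn1 and Gpx3 were highest, and Sod2 was lowest, in cancer control.

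The other regulators of the pathway formed a list of 10 genes. With the tumor in mice without exercise 5 of the 10 rose and 0 fell, with a median log2 fold change of 0.84, where 20.9% of all genes rose and 24.2% fell. Maff, Mafk and Bach2 rose most. Maff and Mafk encode small MAF proteins, the partners of NRF2, and Bach2 encodes a repressor that also pairs with them. Maff had a normalized count of 37.3 without and 84.9 with exercise in mice lacking a tumor, and 1003 without and 338 with it in tumor-bearing mice, a log2 fold change of 4.71 (4.27 to 5.28) with the tumor. Maff is among the candidate genes that the study chose from these libraries, so its changes here are not independent evidence. The study also lists Maff among the genes it measured by RT-qPCR in littermates, and reports changes like those of its sequencing. Mafk had 181, 164, 1452 and 417 in the same order, and Mafg, the remaining small MAF gene, had 505, 580, 763 and 595. Maff and Mafk thus were highest in cancer control and lower in cancer exercise, with log2 fold changes of -1.57 (-1.76 to -1.38) and -1.80 (-1.97 to -1.64), while Mafg stayed under 2-fold. Bach1, also on the list, had 209, 121, 429 and 273. It rose with the tumor both in mice without exercise (log2 fold change 1.04) and in exercised mice (1.16). Sqstm1, whose product p62 binds KEAP1 and carries cargo to autophagy, had 3807, 3552, 19728 and 8846. It rose with the tumor in mice without exercise (log2 fold change 2.37) and fell from cancer control to cancer exercise (-1.16). In the latter comparison 3 of the 10 regulators fell and 0 rose, where 15.1% of all genes fell and 15.6% rose. In exercised mice 5 rose and 1 fell with the tumor, where 13.9% of all genes rose and 16.3% fell. The gene that fell was Btrc, which encodes an adaptor of a ubiquitin ligase.

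Gclc and Gclm encode the catalytic and the modifier subunit of glutamate-cysteine ligase, the rate-limiting enzyme of glutathione synthesis. Gclc lies on chromosome 9 (77754535 to 77794485, plus strand). It had a normalized count of 81.9 in normal control and 148 in its exercised counterpart, against 222 and 147 in the matching libraries with a tumor. Normal control was lowest and cancer control highest, and the exercised libraries between them overlapped in their counting intervals. Gclc rose with the tumor in mice without exercise, 2.69-fold, a log2 fold change of 1.43 (1.05 to 1.83). With exercise the log2 fold change was 0.85 (0.47 to 1.26) without a tumor and -0.59 (-0.91 to -0.27) with one. The tumor value in exercised mice was -0.01 (-0.34 to 0.32). The exercise value without a tumor passed 2-fold, at 1.01, when libraries were scaled to their total reads.

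Gclm lies on chromosome 3 (122245557 to 122270732, plus strand). Its normalized read count was 103 and 63.1 in the unexercised and exercised libraries without a tumor, and 227 and 104 in those with one. Cancer control stood above the other libraries, normal exercise below them, and normal control and cancer exercise were alike. Gclm rose with the tumor in mice without exercise, with a log2 fold change of 1.13 (0.78 to 1.5), and fell with exercise in tumor-bearing mice, with -1.12 (-1.49 to -0.77). With exercise in mice without a tumor the value was -0.70 (-1.16 to -0.26), of opposite sign to that of Gclc in the same libraries. In exercised mice the tumor value was 0.71 (0.27 to 1.17). Its exons share 244 bases with Gm6061, a pseudogene on the same strand, and 296 bases with Gm17494 on the other strand; neither has a row in the files.

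The balance of reads between the subunits differed among the libraries. There were 0.794 reads of Gclc per read of Gclm in normal control (95% interval 0.581 to 1.08), 2.35 in normal exercise (1.79 to 3.10), 0.976 in cancer control (0.802 to 1.19) and 1.42 in cancer exercise (1.08 to 1.86). The interval of normal exercise lay above those of both libraries without exercise and overlapped that of cancer exercise. A read ratio between genes is not a ratio of transcripts or of protein, and only its change among libraries is described.

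Of the 20 further glutathione genes that met the minimum, 4 rose and 5 fell with the tumor in mice without exercise, where 45.1% of all genes passed in either direction. Gss, which encodes the second enzyme of glutathione synthesis, rose with a log2 fold change of 1.34 (0.78 to 1.98), and Gsr, which encodes the reductase that regenerates glutathione, rose with 1.43 (1.24 to 1.63). Gstt1, a glutathione transferase gene, fell by 3.07 on the log2 scale. In tumor-bearing mice exercise was accompanied by 3 rises and 1 fall among the 20, against 30.6% of all genes. Without a tumor 1 of the 20 passed the rule with exercise, against 21.5% of all genes and 4.54% of genes in the expression range of the 10 main genes. That gene was Chac1, whose product degrades glutathione, with 910 reads without and 73 with exercise in mice lacking a tumor, and 446 without and 437 with it in tumor-bearing mice. Its log2 fold change with exercise in mice lacking a tumor was -4.01 (-4.40 to -3.69).

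Txnrd1 encodes cytosolic thioredoxin reductase, a selenoprotein, and Srxn1 encodes sulfiredoxin, which repairs over-oxidized peroxiredoxins. Txnrd1 lies on chromosome 10 (82833951 to 82897712, plus strand) and Srxn1 on chromosome 2 (152105516 to 152111376, plus strand). Txnrd1 had a normalized count of 495 in normal control and 400 in its exercised counterpart, against 509 and 444 in the matching libraries with a tumor. Its libraries stayed within 1.27-fold of each other and normal exercise lay below both unexercised ones, with a log2 fold change of -0.30 (-0.49 to -0.12) with exercise in mice without a tumor and 0.04 (-0.15 to 0.23) with the tumor in mice without exercise. Srxn1 had 434, 469, 608 and 505 in the same order. Cancer control was the highest library, with its counting interval of 559 to 660 above those of the others, whose neighbours overlapped. The log2 fold change of Srxn1 was 0.49 (0.30 to 0.67) with the tumor in mice without exercise, and in tumor-bearing mice it was -0.27 (-0.45 to -0.09) with exercise. The exercise value without a tumor was 0.11 (-0.07 to 0.30).

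Among 16 other genes of the thioredoxin and peroxiredoxin system, 2 rose and 3 fell with the tumor in mice without exercise, again beside 45.1% of all genes. The rises were those of Sesn1, a sestrin gene, and Txnip, which encodes an inhibitor of thioredoxin. Sesn1 had a normalized count of 140 and 132 in the unexercised and exercised libraries without a tumor, and 3627 and 1312 in those with one, a log2 fold change of 4.68 (4.44 to 4.95) with the tumor. Txnip had 9196, 12668, 31937 and 14461. Both were highest in cancer control and fell from there to cancer exercise, with log2 fold changes of -1.47 and -1.14. The methionine sulfoxide reductase genes Msrb2 and Msrb3 fell with the tumor, with log2 fold changes of -2.40 (-2.79 to -2.06) and -2.20 (-2.33 to -2.08). The remaining fall was that of Sesn3, another sestrin gene, with -2.19 (-4.45 to -0.89). With exercise in tumor-bearing mice Sesn3 rose, with 2.28 (0.99 to 4.53), so both changes ran opposite to those of Sesn1. Sesn3 had few reads, 22, 49, 4 and 23 in the same order, and its intervals are wide.

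**Figure D2:**
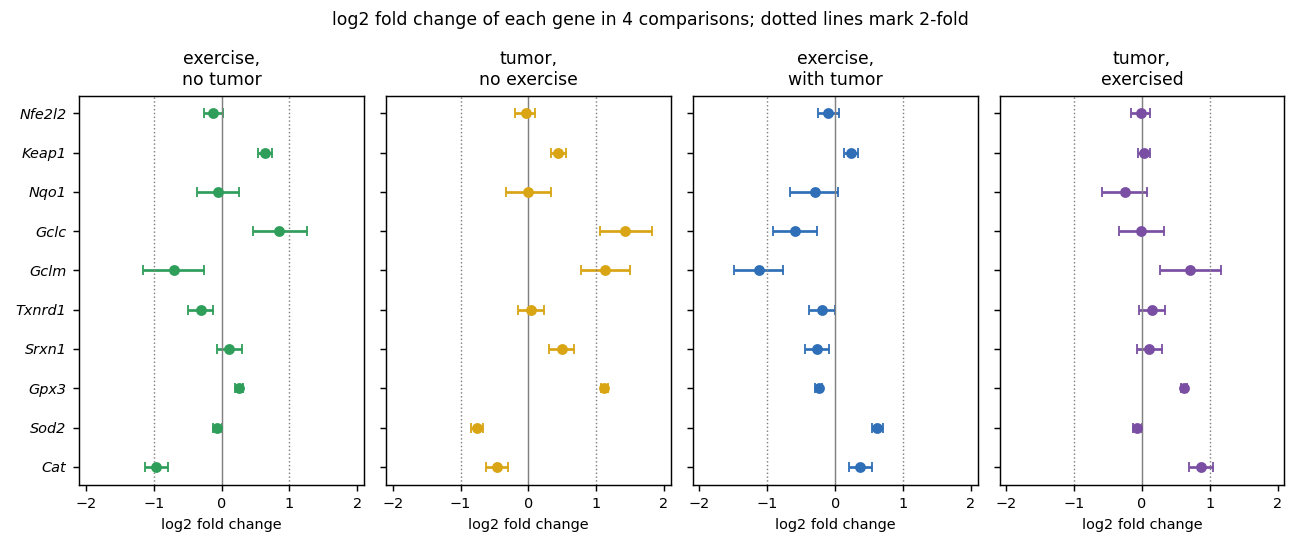
log2 fold change (horizontal axes) of the 10 genes in the 4 comparisons, 1 panel each; bars are 95% exact counting intervals and dotted lines mark 2-fold. With the tumor in mice without exercise Gclc, Gclm and Gpx3 lie beyond the right dotted line, and with exercise in tumor-bearing mice Gclm lies beyond the left one.

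Nqo1 encodes a quinone reductase and is widely used as a readout of NRF2 activity. It lies on chromosome 8 (107388225 to 107403206, minus strand). In normalized reads it measured 165 without and 159 with exercise in mice lacking a tumor, and 165 without and 133 with it in tumor-bearing mice, and the 4 counting intervals overlapped. The log2 fold change with the tumor in mice without exercise was 0.00, with an interval of -0.33 to 0.33, which leaves a 2-fold difference outside the counting error of this pair of libraries. With exercise it was -0.05 (-0.36 to 0.26) without a tumor, which became 0.11 under scaling to total reads, and -0.30 (-0.66 to 0.04) with a tumor. The tumor value in exercised mice was -0.25 (-0.59 to 0.08).

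Of the 24 other known target enzymes and transporters that met the minimum, 3 rose and 5 fell with the tumor in mice without exercise (45.1% of all genes passed), with a median log2 fold change of -0.36. Hmox1, which encodes heme oxygenase 1, rose most. It had 22 reads in normal control and 35 in its exercised counterpart, against 223 and 69 in the matching libraries with a tumor, a log2 fold change of 3.29 (2.72 to 4.05) with the tumor, and in tumor-bearing mice one of -1.66 (-2.09 to -1.28) with exercise. Hmox1 also responds to heme and to inflammation, and macrophages express it. Slc7a11, which encodes a subunit of the cystine importer, had 12, 7, 25 and 0 reads in the same order and was lower by at least 8.24-fold in cancer exercise than in cancer control, with 3 reads taken as the floor of a library. Gsta3, Ephx1 and Me1, which encode a glutathione transferase, an epoxide hydrolase and malic enzyme, fell with the tumor, with log2 fold changes of -1.90, -1.36 and -1.23. Glutathione transferase genes have close paralogs, and how reads matching several genes were counted is not stated, so their values are uncertain. With exercise in mice without a tumor 2 of the 24 rose and 3 fell (21.5% of all genes passed), and the rises were Tkt (1.54, interval 1.34 to 1.74) and Pgd (1.37, 1.18 to 1.56), which encode enzymes of the pentose phosphate pathway. G6pdx and Taldo1, which encode other enzymes of that pathway, stayed under 2-fold in this comparison (-0.34 and 0.07). The falls were Gsta3, with 205 and 70 reads (-1.92, -2.35 to -1.54), Slc7a11, with 12 and 7 reads, and Gsta2, with 4 and 0 reads.

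Gpx3 encodes a secreted glutathione peroxidase that is also a selenoprotein. It lies on chromosome 11 (54902453 to 54910377, plus strand). The normalized read counts were 4659 and 5571 in the unexercised and exercised libraries without a tumor, and 10155 and 8586 in those with one. Both libraries with a tumor lay above both without one, and the counting intervals of all 4 were apart. Gpx3 rose 2.18-fold with the tumor in mice without exercise, a log2 fold change of 1.12 (1.07 to 1.18). In exercised mice the tumor value was 0.62 (0.58 to 0.67), under 2-fold. With exercise it was 0.26 (0.20 to 0.31) without a tumor and -0.24 (-0.29 to -0.20) with one. Of the 15 other selenoprotein and selenocysteine genes 3 rose and 0 fell with the tumor in mice without exercise, where 20.9% of all genes rose: Sephs2, Vimp and Secisbp2, with log2 fold changes of 1.24, 1.07 and 1.02.

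Sod2 encodes the superoxide dismutase of mitochondria. It lies on chromosome 17 (13006846 to 13040063, plus strand). Its normalized read count was 3516 without and 3354 with exercise in mice lacking a tumor, and 2083 without and 3204 with it in tumor-bearing mice. Cancer control stood below the other libraries, among which the counting intervals of neighbours overlapped. The log2 fold change was -0.75 (-0.84 to -0.67) with the tumor in mice without exercise and in tumor-bearing mice 0.62 (0.54 to 0.70) with exercise, both under 2-fold. In mice without a tumor the exercise value was -0.07, which became 0.09 under scaling to total reads. Among 10 other genes of superoxide removal and production 2 rose and 1 fell with the tumor in mice without exercise, where 20.9% of all genes rose and 24.2% fell. Sod1, which encodes the cytosolic superoxide dismutase, had 7706, 11568, 20752 and 12624, highest where Sod2 was lowest, and rose with the tumor in mice without exercise with a log2 fold change of 1.43 (1.39 to 1.47). Nox4, which encodes an oxidase that produces hydrogen peroxide, rose with the tumor both without exercise, by 2.23 on the log2 scale, and with it, by 2.48.

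Cat encodes catalase, the peroxisomal enzyme that splits hydrogen peroxide. It lies on chromosome 2 (103453849 to 103485160, minus strand). In normalized reads it measured 756 in normal control and 389 in its exercised counterpart, against 548 and 709 in the matching libraries with a tumor. Normal exercise was the lowest library, cancer control was next, and normal control and cancer exercise overlapped. The log2 fold change with exercise was -0.96 (-1.13 to -0.79) in mice without a tumor, just inside the 2-fold limit, and 0.37 (0.20 to 0.54) in tumor-bearing mice. The tumor value was -0.46 (-0.63 to -0.30) without exercise and 0.87 (0.69 to 1.04) with it.

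The counts of the 10 genes can be set beside those of all genes. With exercise in mice without a tumor 0 of the 10 passed the rule, where 21.5% of 14518 genes did (9.44% higher and 12.1% lower). With the tumor in mice without exercise 3 of the 10 rose and 0 fell, where 45.1% of 14818 genes passed (20.9% higher and 24.2% lower). With exercise in tumor-bearing mice 1 fell and 0 rose, where 30.6% of 14491 genes passed (15.6% higher and 15.1% lower), and with the tumor in exercised mice 0 passed, where 30.3% of 14470 did (13.9% higher and 16.3% lower). Genes with few reads pass such a rule more easily. Among genes whose mean normalized read count lay within the range of the 10, the share that passed in either direction was 4.54%, 31.2%, 12.1% and 14.5% in the same order of comparisons.

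The median log2 fold change of the 10 genes was -0.06 with exercise in mice without a tumor, 0.24 with the tumor in mice without exercise, -0.22 with exercise in tumor-bearing mice and 0.07 with the tumor in exercised mice. Over all genes that met the minimum the medians were -0.01, -0.04, 0.01 and -0.03. The median size of change, without regard to sign, was 0.28, 0.47, 0.29 and 0.13 for the 10 genes. It was 0.28, 0.65, 0.39 and 0.40 for the genes in their range of expression. Comparisons that share a library are not independent, as the tumor comparison without exercise and the exercise comparison without a tumor both use normal control, and the former shares cancer control with the exercise comparison in tumor-bearing mice.

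**Figure D3:**
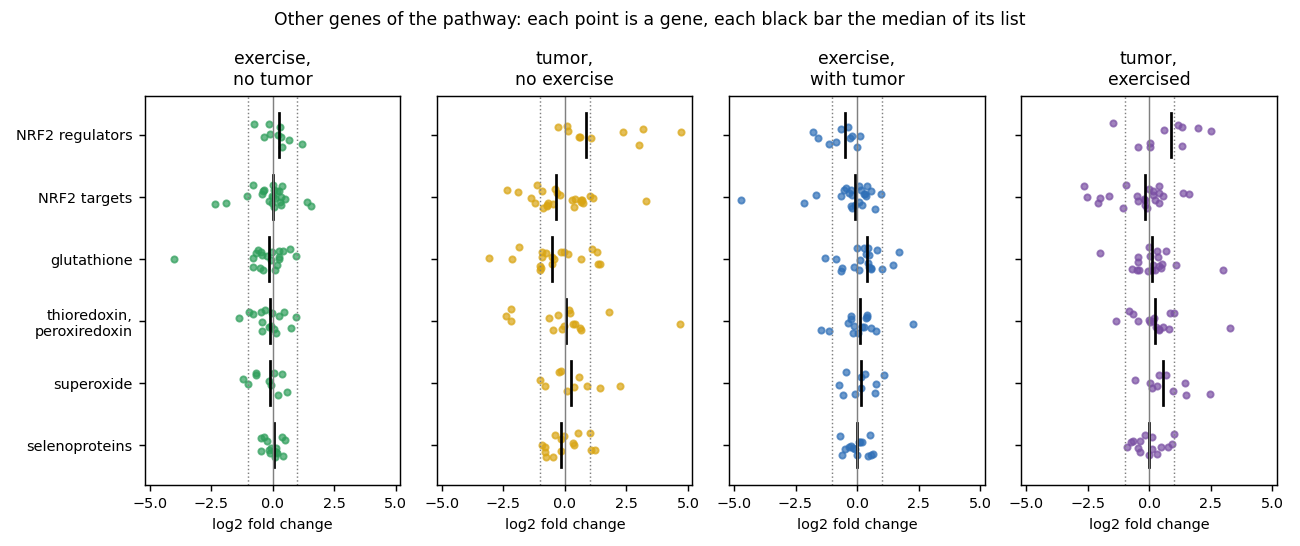
log2 fold change (horizontal axes) of the other genes of the pathway in 6 lists and the 4 comparisons; each point is a gene that met the minimum, each black bar the median of its list, and dotted lines mark 2-fold. With the tumor in mice without exercise the median of the NRF2 regulators is 0.84 and that of the target enzymes -0.36.

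Over all 96 other genes of the pathway, 3 rose and 6 fell of the 90 that met the minimum with exercise in mice without a tumor. With the tumor in mice without exercise 19 rose and 14 fell of 90, with exercise in tumor-bearing mice 5 rose and 9 fell of 89, and with the tumor in exercised mice 14 rose and 9 fell of 89. The shares of all genes that passed in either direction were 21.5%, 45.1%, 30.6% and 30.3% in these comparisons. Among genes in the expression range of the 10 main genes they were 4.54%, 31.2%, 12.1% and 14.5%. The 96 genes span a wider range than that, and no share matched to their own expression was computed. Whether they changed less or more often than like genes is therefore not settled, and this holds for the single lists too. The medians of the 96 genes, as far as they met the minimum, were -0.02, -0.08, 0.00 and 0.13. Some lists overlap, and a gene in more than 1 of them was counted once here.

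The study set the exercise effects with and without a tumor against each other, and these comparisons share no library. When the effect without a tumor was subtracted from that with one, the difference was -1.44 for Gclc on the log2 scale (95% exact counting interval -1.96 to -0.93) and 1.33 for Cat (1.09 to 1.57). It was 0.69 for Sod2 (0.58 to 0.80), -0.50 for Gpx3 (-0.57 to -0.43) and -0.42 for Keap1 (-0.56 to -0.27). For Gclm, which was lower with exercise in both settings, it was -0.42 (-1.0 to 0.16), and the intervals of Nfe2l2, Nqo1 and Txnrd1 also spanned 0. For Srxn1 it was -0.38 (-0.64 to -0.12). None of the 10 genes passed 2-fold in both exercise comparisons. Counting intervals leave out the differences between animals, so that a difference between the effects was not tested.

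**Figure D4:**
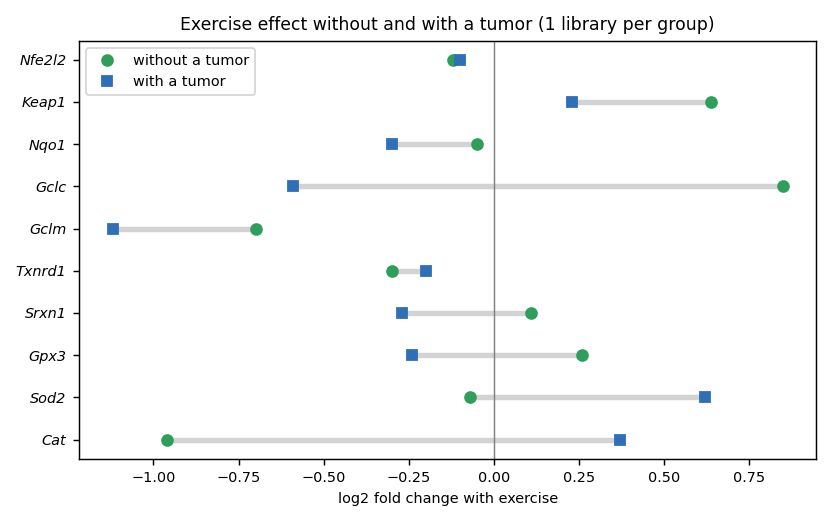
log2 fold change with exercise (horizontal axis) of each gene in mice without a tumor (circles) and with a tumor (squares), from 1 library per group; grey bars join the values of a gene. The longest bars are those of Gclc (0.85 and -0.59) and Cat (-0.96 and 0.37).

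Markers of fibre types and of other cells in the tissue also differed between libraries. All 8 muscle fibre markers had reads in every library, among them Acta1 and Ckm, and their summed normalized read count ranged from 646698 in cancer control to 1164677 in normal control. The 7 slow fibre markers, such as Myh7 and Tnnt1, summed to 8280 and 14260 in the unexercised and exercised libraries without a tumor, and 24865 and 11601 in those with one. The libraries at either end are those in which Gclc, Srxn1 and Gpx3 were lowest and highest. Between the exercised libraries the order differed, as Srxn1 and Gpx3 were higher in cancer exercise and the slow fibre sum was higher in normal exercise. The same libraries also stood at the ends, in reverse, for the sums of the muscle fibre, fibroblast and adipocyte markers. The part of fibre type or of other cells in the values of these genes was not tested.

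The 7 red cell markers found, which include Hba-a1 and Alas2, summed to 249011, 51513, 235237 and 504624. The 8 adipocyte markers, which include Adipoq and Plin1, summed to 39063, 22068, 12675 and 27037. Red cells and fat tissue contain catalase. From normal control to normal exercise both lists were lower, with log2 ratios of their sums of -2.27 and -0.82, where the value of Cat was -0.96, and from cancer control to cancer exercise both were higher, with 1.1 and 1.09. Slc4a1 was at 0 reads in cancer control, and Lep was at 0 in both libraries with a tumor. Their part in the values of Cat was not tested.

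Of 9 neutrophil markers 4, 5, 7 and 6 had any reads, with sums of 69.4, 154, 2668 and 1967. Elane was at 0 in every library, Mpo in 3 of them and Ngp in 3. The 8 macrophage markers had reads throughout and summed to 4010, 3977, 7202 and 6462. The sums of both lists were higher in the libraries with a tumor, as were Hmox1, Maff and Gpx3. With the tumor 8 neutrophil markers were higher and 0 lower without exercise, and 7 were higher and 1 lower in exercised mice. Of the macrophage markers 5 were higher and 3 lower without exercise, and 6 and 2 in exercised mice. Keratinocyte markers, of which all 8 had reads in cancer control and 3 or 4 of 8 in the others, summed to 852 there and to 95.7 to 245 elsewhere. Fibroblast markers (7 of 7 with reads in every library) ranged from 36907 in cancer control to 94428 in normal control. Endothelial markers (6 of 6) ranged from 2651 to 3443, and 4 carcinoma markers from 19.6 in cancer exercise to 111 in cancer control, with Epcam at 0 in 3 of the libraries. The part of these cells in the results was not tested.

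**Figure D5:**
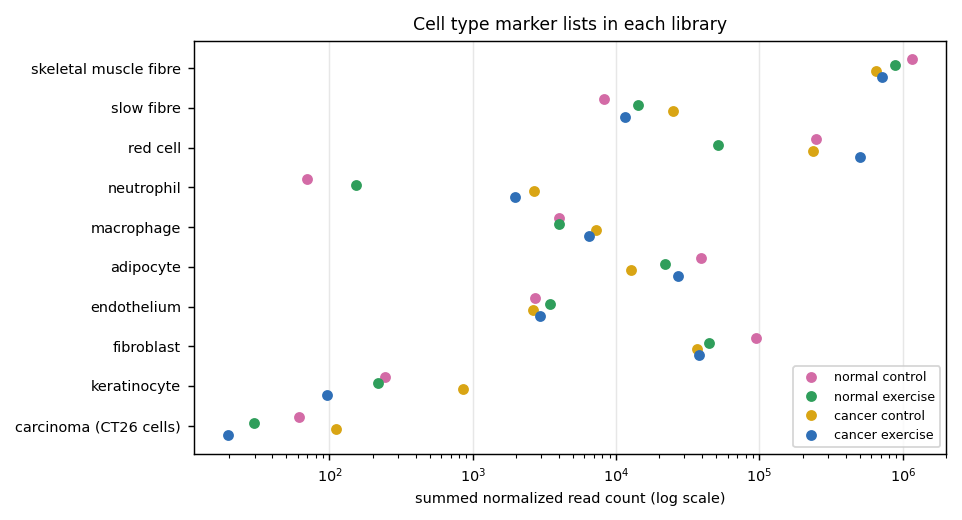
Summed normalized read count (horizontal axis, log scale) of 10 marker lists in each library; points are single libraries. The slow fibre and keratinocyte lists are highest in cancer control, and the red cell list is lowest in normal exercise.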

How the data were processed

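RNA of the gastrocnemius was measured in 4 QuantSeq libraries, grouped by sample title. According to the methods, the authors mapped reads by Bowtie2, obtained counts per gene from Bedtools and applied quantile normalization with edgeR; the submitters' processing notes name mm10. Annotation, strand, duplicates and multi-mapping reads are not given in the sources used here. Each deposited value is on a log2 scale, of the normalized count with 1 added. Fold changes are differences of these values and understate changes of low genes. Of the 23282 rows, 79 share a symbol with another row, none of them a gene of the main list.

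Read counts were rebuilt by fitting the quantile adjustment to the low values (4 library sizes and 1 dispersion, 0.339); 100% of the values matched a whole number of reads within 0.0006, and 94.9% to 96.2% per library fixed a single count. The procedure was tried on simulated data made with the same adjustment and dispersion. Such a trial cannot show that the deposited values were made in that way. A share of 3 reads was at most 2.82e-05% of a library. Intervals are 95% Clopper-Pearson bounds on read shares, scaled with TMM (trimmed mean of M values) factors, and exact conditional odds ratio intervals for differences of effects. Reads are not known to carry molecular identifiers, so intervals cover counting error only.

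With 1 library per group no test was made. The members and lists were chosen with earlier results of these data known. List genes named are the largest changes of each list (up to 3 rises and 3 falls per comparison, at least 16 normalized reads). Mafg, Bach1, Gsta2, G6pdx and Taldo1, the other values of a named gene, and marker genes were added afterwards. Alternatives were other scalings (TMM, total count, median of ratios), a pseudocount of 0 or 4, other minimums, and 1.5-fold and 4-fold thresholds. Positions are from GENCODE M21 (GRCm38). Python 3.11.15, SciPy 1.17.1 and base R were used.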

Additional observations from a re-analysis of the deposited data

Results flagged for a closer look

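3 genes of the wider pathway lists had fold changes of at least 2 on the scale with a pseudocount of 1, in opposite directions under the same contrast in 2 settings, though for Slc7a11 one of them rests on the pseudocount; each value rests on single libraries and the difference was not tested. Maff, which encodes a small MAF protein, rose with exercise in mice without a tumor (1.17) and fell with exercise in mice bearing one (-1.57), a difference of -2.73 on the log2 scale. The study chose Maff as a candidate from these same libraries, so this pattern is not independent evidence. Chac1, whose product degrades glutathione, fell with the tumor in mice without exercise (-1.02) and rose with it in exercised mice (2.98), a difference of 4.00; its low count in normal exercise, 73 reads against 437 to 910 in the other libraries, enters the second value. Slc7a11, which encodes a subunit of the cystine importer, had a log2 fold change of 1.01 with the tumor in mice without exercise and -2.65 in exercised mice, a difference of -3.65 that depends on the pseudocount, since it rests on 12, 7, 25 and 0 reads; with 3 reads as the floor it was at least 1.75-fold lower with the tumor in exercised mice.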

How the results depend on the processing

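Of 200 recomputed fold changes of the 10 genes, 190 stayed within their counting interval and 0 of the values past 2-fold turned in sign. The largest change under any setting was 0.16 on the log2 scale, too small to turn a value past 2-fold. Little movement was possible under TMM scaling, which the intervals also use, or under other pseudocounts at these read depths. The remaining 10 arose under total count scaling. That scaling shifted the median of all genes by 0.16 with exercise in mice without a tumor and by -0.15 with the tumor in exercised mice, and 7 values under 2-fold changed sign with it. It gave 1 gene (Gclc, 1.01) in place of 0 with exercise in mice without a tumor, and over all genes a split of 1685 higher and 1502 lower in place of 1371 and 1750 there, and of 1702 and 2798 in place of 2014 and 2364 with the tumor in exercised mice. A 1.5-fold threshold gave 4 of the 10 genes with exercise in mice without a tumor, 3 with exercise in tumor-bearing mice and 3 with the tumor in exercised mice. A 4-fold threshold left 0 with the tumor in mice without exercise and 0 with exercise in tumor-bearing mice. The other 34 of 40 recomputed counts of the 10 genes stayed within 1.5 times the reported count. Over all genes, a minimum of 4 in both libraries left 704 higher and 896 lower with exercise in mice without a tumor, 1397 and 1229 (in place of 2255 and 2182) with exercise in tumor-bearing mice, and 1206 and 1436 with the tumor in exercised mice, and a minimum of 16 left 753 and 988 in the first of these and 1548 and 1418 in the second. By construction the thresholds moved these counts too, to 2546 and 2962 in the first comparison, 3658 and 3517 in the second and 3309 and 3798 in the third at 1.5-fold, and to 611 and 826, 997 and 1061, and 910 and 1041 at 4-fold, where the tumor in mice without exercise left 1391 and 1787 in place of 3090 and 3592. No paired analysis was possible because each group has 1 library. These results are limited by single libraries standing for the groups and, for Gclc and Gclm, which had as few as 77 and 78 reads in a library, by depth.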
